A study of Sus scrofa with 11 samples.

Results

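MSTN (myostatin, ENSSSCG00000016047), FST (follistatin, ENSSSCG00000016892) and IGF1 (insulin-like growth factor 1, ENSSSCG00000000857) encode secreted proteins that act on muscle size, and their RNA was measured in pig back muscle. They are the 3 rows of 25322 in the gene table whose Ensembl ID carries one of these symbols, and all 3 passed the filter on low counts that 11329 genes passed. They were picked with the difference between the groups already known. Their values in that contrast are therefore a description, and the p-values printed for them support nothing further. RNA came from the longissimus lumborum of 11 female pigs aged 23 weeks, sampled after slaughter, with 1 library per pig. In the 7 pigs of the fibre1 group, type I fibres (slow, oxidative) exceeded 17% of fibres and type IIB fibres (fast, glycolytic) stayed under 70%. In the 4 pigs of the fibre2B group type I fibres were under 8% and type IIB fibres over 70%. The labels name no treatment, breed, litter or batch. The fibre share is given as these bounds and not as a value per pig.

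Myostatin is a secreted protein of the TGF-beta family that is made by muscle fibres and limits muscle mass, and animals that lack it grow enlarged muscles. It binds activin type II receptors, which act with a type I receptor to switch on SMAD2 and SMAD3. Follistatin is a secreted antagonist that binds myostatin and activins and keeps them from their receptors. IGF1, made by the liver and locally in muscle, acts through its receptor on PI3K, AKT and mTOR to raise protein synthesis and to hold back FOXO factors.

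The tissue label was checked first. The fibre genes ACTA1, DES, TNNC2 and CASQ1 together held 113798 to 238652 CPM (counts scaled to a common library size with TMM factors) in fibre1 and 99095 to 124070 CPM in fibre2B. Totals ran from 18369053 to 36374829 counts in fibre1 and from 14832736 to 22145667 in fibre2B. The 10 most abundant nuclear genes took 45.2% of counts in fibre1 pig 5 and 44.1% in pig 6, against at most 36.8% in the other pigs. These pigs had the lowest scaling factors, 0.718 and 0.779. Fibre2B pig 14 had the smallest library and the lowest sum of fibre genes. A count in such tissue cannot tell fewer cells of a type from less RNA per cell. CPM are not per length, so levels are compared between pigs and not between genes.

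MSTN was lower in fibre1. It had 1.08 CPM in the lowest fibre1 pig, 1.33 in the median pig and 4.59 in the highest, and 6.37, 2.38, 4.88 and 8.28 CPM in fibre2B pigs 10, 11, 14 and 16. The groups overlapped: fibre1 pigs 7 (4.59 CPM) and 12 (2.57 CPM) lay above fibre2B pig 11, while the other 5 fibre1 pigs sat close together between 1.08 and 1.39 CPM. Mean levels were 1.93 ± 1.28 CPM over the fibre1 pigs (SD, n = 7) and 5.48 ± 2.49 CPM over the fibre2B pigs (SD, n = 4). The log2 fold change, fibre1 minus fibre2B, was -1.49 ± 0.41 (SE; edgeR adjusted p = 0.040). In 26 of the 28 pairs of a fibre1 with a fibre2B pig the fibre1 pig was the lower. MSTN rests on few reads, 17 to 159 per pig. With 17 counts, the exact binomial 95% interval of fibre1 pig 5 ran from 0.628 to 1.73 CPM, and with 159 counts that of fibre2B pig 16 ran from 7.05 to 9.68 CPM, counting error only. Its spread between pigs of a group was a biological coefficient of variation of 46.2%, against 31.9% on the trend for genes of like abundance.

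**Figure D1:**
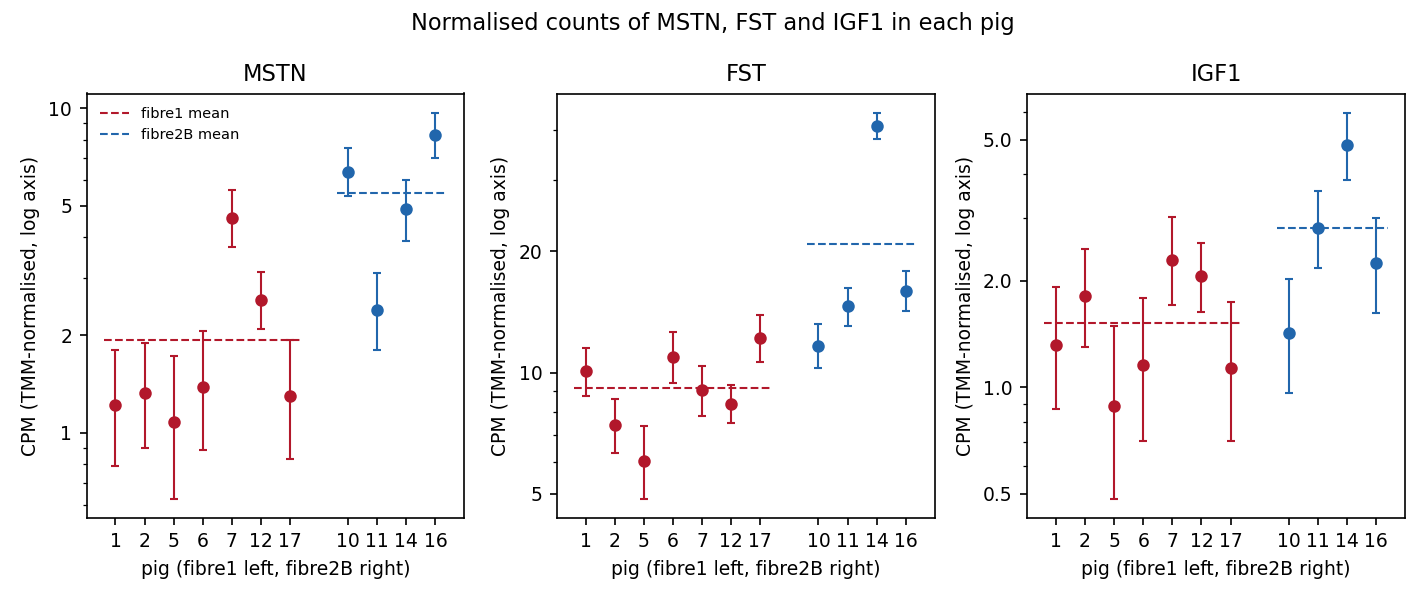
CPM of MSTN, FST and IGF1 in each pig on a log axis, with exact 95% counting intervals; dashed lines are group means, fibre1 on the left and fibre2B on the right. Fibre1 pigs 7 and 12 reach into the fibre2B range for MSTN, and fibre2B pig 14 stands above all other pigs for FST (41.0 CPM) and IGF1 (4.82 CPM).

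FST, the antagonist, was lower in fibre1 too, and with less spread inside that group. It had 6.02 CPM in the lowest fibre1 pig, 9.05 in the median pig and 12.2 in the highest, and 11.6, 14.6, 41.0 and 15.9 CPM in fibre2B pigs 10, 11, 14 and 16. Fibre1 pig 17 (12.2 CPM) lay above fibre2B pig 10, and in the other 27 of 28 pairs the fibre1 pig was the lower. Mean levels were 9.14 ± 2.11 CPM over the fibre1 pigs (SD, n = 7) and 20.8 ± 13.6 CPM over the fibre2B pigs (SD, n = 4). The log2 fold change was -1.18 ± 0.30 (SE), and edgeR gave an adjusted p of 0.032. The highest pig of the group exceeded the lowest 2.02-fold in fibre1 and 3.52-fold in fibre2B. Counts were 95 to 723 per pig, the largest of the 3 genes. The coefficient of variation was 34.7%, against 26.1% on the trend.

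IGF1 had the smallest difference and the most overlap. It had 0.887 CPM in the lowest fibre1 pig, 1.32 in the median pig and 2.30 in the highest, and 1.42, 2.82, 4.82 and 2.24 CPM in fibre2B pigs 10, 11, 14 and 16. Fibre1 pigs 2, 7 and 12 were above fibre2B pig 10, and the fibre1 pig was the lower in 24 of 28 pairs. Mean levels were 1.52 ± 0.53 CPM over the fibre1 pigs (SD, n = 7) and 2.83 ± 1.45 CPM over the fibre2B pigs (SD, n = 4). The log2 fold change was -0.87 ± 0.33 (SE), and the gene did not pass (edgeR adjusted p = 0.108). Counts were 14 to 85 per pig, and the coefficient of variation of 37.4% was close to the 36.9% of the trend.

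In the fit over all genes 525 of 11329, or 4.63%, were called lower in fibre1, 4.38% were called higher, and together these are 9.01%. Of the 3 genes 2, MSTN and FST, were called lower in fibre1. They were chosen on this contrast, so nothing is read from that count. The groups did not overlap in 7.55% of tested genes, with fibre1 the lower group in 4.15%, and they overlapped for each of the 3 described here.

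The differences rested on single pigs to unequal degrees. For FST, fibre2B pig 14 carried much of the value: without it the fibre2B mean was 14.1 ± 2.20 CPM (SD, n = 3), and the log2 fold change was -0.61 ± 0.21 (edgeR adjusted p = 0.127). The fibre1 pig was still the lower in 20 of the 21 remaining pairs. Removing any one of fibre1 pigs 1, 2 and 5 or fibre2B pig 16 also ended the FST call (edgeR adjusted p 0.051 to 0.062), while the log2 fold change stayed between -1.29 and -1.11. IGF1 depended on the same pig: without fibre2B pig 14 its log2 fold change was -0.48 ± 0.32 (edgeR adjusted p = 0.416), and the fibre2B mean was 2.16 ± 0.70 CPM (SD, n = 3).

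MSTN depended on other pigs. Without fibre2B pig 14 its log2 fold change was -1.54, close to the value with all pigs. It was -1.22 without fibre2B pig 16, the highest pig, and -1.85 ± 0.33 without fibre1 pig 7, the fibre1 pig with the highest level. Leaving out fibre2B pig 11, the lowest of its group, separated the groups, with the fibre1 pig lower in 21 of 21 pairs and a log2 fold change of -1.74. Removing any one of 5 fibre1 pigs (1, 2, 5, 6, 17) or 3 fibre2B pigs (10, 14, 16) ended the MSTN call, with edgeR adjusted p between 0.054 and 0.116. Without any one of those 5 fibre1 pigs the MSTN log2 fold change was -1.43 to -1.40. With pig 14 left out edgeR called 0 genes of the whole table (2436 at an unadjusted p under 0.05), so the calls lost there are those of every called gene. Calls over the whole table also fell, from 1021 to 316 to 478, without fibre1 pig 1, 2, 5 or 6. They numbered 325 and 300 without fibre2B pigs 10 and 16.

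**Figure D2:**
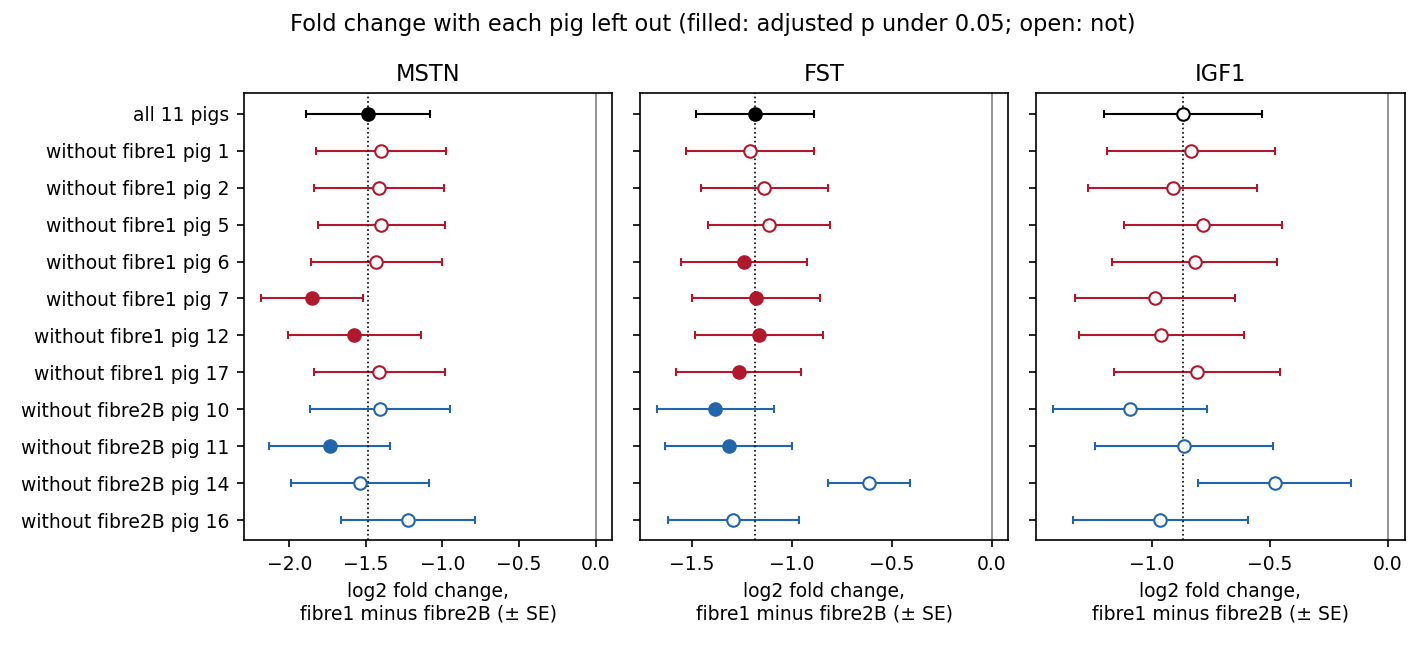
Log2 fold change, fibre1 minus fibre2B, of each gene with all 11 pigs (black) and with each pig left out (red, fibre1; blue, fibre2B); bars are the SE and filled points have an edgeR adjusted p under 0.05. FST and IGF1 move most without fibre2B pig 14 (to -0.61 and -0.48), MSTN without fibre1 pig 7 (to -1.85).

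The ratio of FST to MSTN counts needs no scaling factor, since both counts come from the same library. It is a ratio of counts, not per length, and so it is read between pigs only. It was 1.97 in the lowest fibre1 pig, 5.59 in the median pig and 9.38 in the highest, and 1.83, 6.13, 8.41 and 1.92 in fibre2B pigs 10, 11, 14 and 16. The groups covered almost the same range. The geometric means were 5.25 in fibre1 and 3.65 in fibre2B, and the difference of mean log2 ratios, fibre1 minus fibre2B, was 0.52 ± 0.58 (SE), less than the pooled SD between pigs of 0.92. The fibre1 pig had the higher ratio in 18 of 28 pairs. Both genes were chosen on this contrast and the ratio was not tested.

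Inside each group the pigs spread widely in this ratio. Fibre1 pig 7 (1.97, exact 95% counting interval 1.54 to 2.53) and fibre2B pigs 10 (1.83, 1.48 to 2.26) and 16 (1.92, 1.58 to 2.35) had the lowest ratios, and their intervals overlap. Fibre1 pig 12 followed at 3.25 (2.59 to 4.11). The other 7 pigs, from both groups, had ratios from 5.57 to 9.38. These low ratios came with the highest and the second highest MSTN level among the pigs (fibre2B pigs 16 and 10) and with the highest MSTN level of fibre1 (pig 7). MSTN is the divisor of the ratio, so a high MSTN count by itself lowers it. Fibre2B pig 14 had a high MSTN level, 4.88 CPM, and a high ratio, 8.41, with an FST count of 723. Without that pig the difference of mean log2 ratios was 0.92, and without fibre2B pig 10 it was 0.19.

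**Figure D3:**
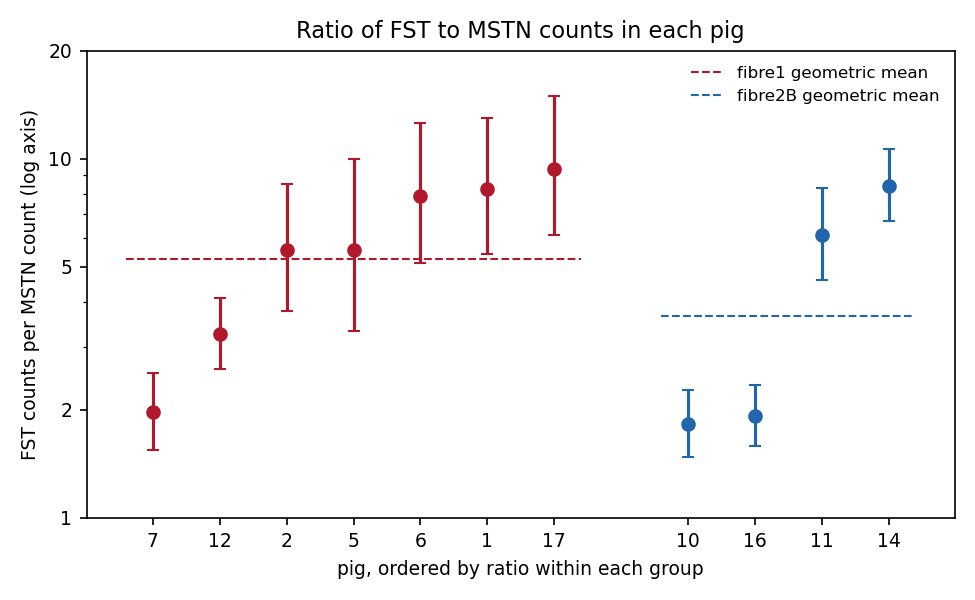
FST counts per MSTN count in each pig on a log axis, with exact 95% counting intervals; pigs are ordered by ratio within each group, and dashed lines are geometric means. Low ratios near 2 occur in both groups (fibre1 pig 7 at 1.97, fibre2B pigs 10 and 16 at 1.83 and 1.92), and so do ratios above 8.

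The other ratios behaved differently. FST to IGF1 ran from 3.94 to 10.7 in fibre1 and from 5.18 to 8.51 in fibre2B, a 2.72-fold range over all pigs, against 5.13-fold for FST to MSTN. IGF1 to MSTN ran from 0.50 to 1.37 in fibre1, and was 0.223, 1.18, 0.988 and 0.270 in fibre2B pigs 10, 11, 14 and 16. Fibre2B pigs 10 and 16 thus had the most MSTN and low IGF1 only relative to it. Their IGF1 levels, 1.42 and 2.24 CPM, ranked 7 and 4 from the highest of the 11 pigs.

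Whether the genes varied together was examined within fibre1, where the choice of the genes by the group contrast plays no part. Over the 7 fibre1 pigs MSTN and IGF1 went together on log2 CPM, with Pearson's r = 0.824 (two-sided exact permutation p = 0.0030, 0.0089 adjusted over 3 pairs) and Spearman's rho = 0.821 (exact permutation p = 0.034, 0.102 adjusted). Without pigs 7 and 12, the farthest from the median of MSTN, r was 0.593 over 5 pigs and did not pass (exact permutation p = 0.275). Only 120 pairings are possible with 5 pigs, and the removal also narrows the range of MSTN. The lost call there thus says little about those pigs alone. Without 1 pig r stayed between 0.770 and 0.936, but the adjusted p was under 0.05 only without pig 1 or pig 2 and was 0.058 to 0.113 (exact permutation) without any one of pigs 5, 6, 7, 12 and 17. It did not pass over all 11 pigs with group means removed (r = 0.303, rho = 0.318, permutation p = 0.394). Fibre2B has too few pigs for a value of its own. MSTN and FST had r = 0.060 (exact permutation p = 0.901) and rho = 0.143 (exact permutation p = 0.783). FST and IGF1 had r = -0.0032 (exact permutation p = 0.995) and rho = -0.107 (exact permutation p = 0.840). With library totals in place of TMM factors r was 0.522 and 0.556 for these last pairs (exact permutation p = 0.221 and 0.196), so their values depend on the scaling. In that scaling MSTN and IGF1 had r = 0.894 and rho = 1 (exact permutation p adjusted over 3 pairs 0.0042 and 0.0012). Fibre1 pig 5 was the lowest of all pigs for each of the 3 genes.

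**Figure D4:**
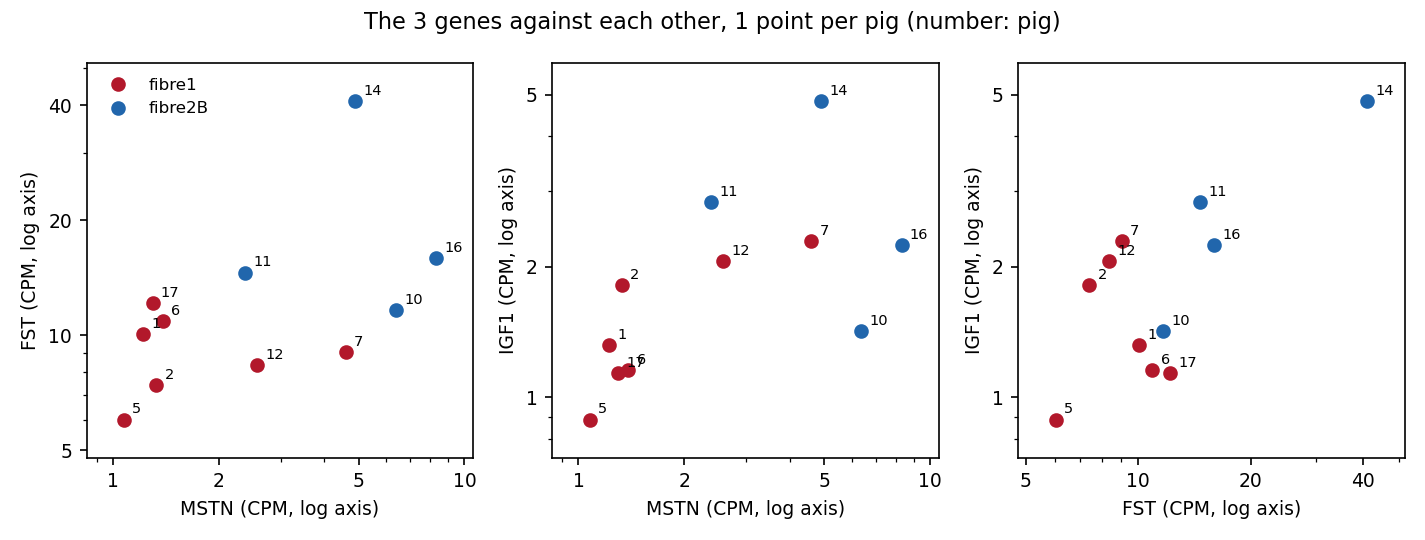
CPM of each pair of genes on log axes, 1 point per pig, red for fibre1 and blue for fibre2B, with the pig number beside each point. In fibre1 MSTN and IGF1 are both highest in pigs 7 and 12, while fibre2B pigs 10 and 16 have the highest MSTN with less IGF1 than fibre2B pigs 11 and 14.

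The isoform table was searched for runs of rows whose counts sum to those of each gene, a join inferred from the values. MSTN matched 1 isoform with all 759 counts. FST matched 2 isoforms, with a shortfall of at most 1 count per pig. ENSSSCT00000023776 held 88.1% of the counts in this pair and was counted in every pig, including all 723 counts of fibre2B pig 14. ENSSSCT00000018397 had 73, 6, 12 and 108 counts in fibre1 pigs 1, 5, 6 and 7, 160 in fibre2B pig 11, and 0 in the other 6 pigs. IGF1 matched a run of 10 isoforms, 9 of them with counts and with a shortfall of at most 4 counts per pig. The IGF1 join was not unique: 2 runs that differ in their counted isoforms met the rule, and the longest is described. The most counted, ENSSSCT00000034323, held 35.5% of them and was above 0 in 10 of 11 pigs. Isoforms of 1 gene share reads, so such splits are estimates, and at 14 to 85 counts per pig the IGF1 split is uncertain.

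The genes whose pattern was most like each of the 3 were taken as the 4 with the highest Pearson's r over the 11 pigs, on log2 CPM with group means removed, among 4569 other genes with a symbol and a mean of at least 5 CPM (4568 for FST). For MSTN they were ZCCHC9 (r = 0.898, rho = 0.836), TYK2 (0.853 and 0.691), PGD (0.851 and 0.782) and EMC2 (0.847 and 0.745). For FST they were PPID (0.890 and 0.855), HSP90B1 (0.881 and 0.855), CCT4 (0.873 and 0.727) and MGME1 (0.868 and 0.782). For IGF1 they were UBE2L6 (0.935 and 0.955), LZTFL1 (0.909 and 0.945), MX1 (0.904 and 0.891) and NSMCE4A (0.899 and 0.855). PPID, HSP90B1 and CCT4 encode chaperone proteins, and UBE2L6 and MX1 are interferon-induced genes. The values are the highest of many and carry no p. LZTFL1 was called lower in fibre1 (log2 fold change -0.69 ± 0.18, edgeR adjusted p = 0.035), and the other 11 genes were not called.

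The rest of the myostatin and IGF1 pathways was taken from lists chosen with earlier results of these data known. Of 110 listed genes 85 had an ID and 63 were tested. Of these 5 were higher and 2 lower in fibre1, or 11.1% called, beside the 9.01% of all tested genes. Their median log2 fold change was 0.03, against 0.0073 for all tested genes. The count was 0 without fibre2B pig 14 (21 at an unadjusted p under 0.05 in edgeR), 1 without pig 10 or pig 16, 2 without fibre1 pig 2, 4 without fibre1 pig 1, 5 or 6, and 11 without fibre1 pig 12.

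Among ligands of the family TGFB1 averaged 9.51 ± 1.59 CPM (SD, here and for the genes that follow, n = 7) over fibre1 pigs and 6.61 ± 0.81 CPM (n = 4) over fibre2B pigs (edgeR adjusted p = 0.057, and 0.021 in DESeq2), and GDF11, the closest relative of MSTN, had 3.71 ± 1.42 CPM in fibre1 against 2.39 ± 0.83 CPM in fibre2B (adjusted p = 0.179). Neither passed by edgeR, with log2 fold changes of 0.52 and 0.64. TGFB2, another ligand of the family, had 7.89 ± 2.48 CPM in fibre1 against 12.1 ± 6.88 CPM in fibre2B (log2 fold change -0.62, adjusted p = 0.224). FURIN, a protease that cuts precursors of this family, had 3.06 ± 1.13 CPM in fibre1 against 1.57 ± 0.32 CPM in fibre2B (adjusted p = 0.062, and 0.019 in DESeq2). Of 4 antagonists tested DCN was called lower in fibre1 with FST, beside 4.63% of all tested genes called lower. DCN encodes decorin, a collagen-binding proteoglycan of connective tissue that also binds myostatin, and had 135 ± 35.0 CPM in fibre1 against 297 ± 98.6 CPM in fibre2B (log2 fold change -1.13 ± 0.23, edgeR adjusted p = 0.019, and 0.070 without fibre2B pig 14). WFIKKN2, another secreted myostatin antagonist, had 1.21 ± 0.64 CPM in fibre1 against 1.62 ± 1.29 CPM in fibre2B (adjusted p = 0.600). Its log2 fold change was -0.42 with all pigs and 0.30 without fibre2B pig 11. LTBP3, the last of the 4, went the other way and was not called (log2 fold change 0.51, edgeR adjusted p = 0.134).

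Of 5 receptors ACVR1B, a type I receptor for activins and myostatin, was higher in fibre1, with 8.54 ± 1.52 CPM against 4.79 ± 1.59 CPM in fibre2B (log2 fold change 0.83 ± 0.22, edgeR adjusted p = 0.038). The groups did not overlap in CPM for ACVR1B, nor, with fibre1 the lower, for ACVR2A and TGFBR1, by narrow gaps in all 3 (7.55% of all tested genes do not overlap). The type II receptor gene ACVR2A had 3.51 ± 0.58 CPM in fibre1 against 4.90 ± 0.70 CPM in fibre2B (adjusted p = 0.090), TGFBR1 had 13.7 ± 2.25 CPM in fibre1 against 19.3 ± 3.77 CPM in fibre2B (adjusted p = 0.069, and 0.037 in DESeq2), and ACVR2B had 2.74 ± 0.76 CPM in fibre1 against 2.31 ± 0.69 CPM in fibre2B (adjusted p = 0.569). Of 7 genes of the SMAD2 and SMAD3 arm 0 passed by edgeR (2 at an unadjusted p under 0.05). The closest, SMAD7, an inhibitor of that arm, had 4.40 ± 0.74 CPM in fibre1 against 2.56 ± 0.88 CPM in fibre2B (edgeR adjusted p = 0.058, and 0.019 in DESeq2). Of 13 genes of the BMP arm BMP4 was lower in fibre1 (3.18 ± 1.04 CPM, against 5.49 ± 0.91 CPM in fibre2B, edgeR adjusted p = 0.0496). The ACVR1B call ended when any one of fibre1 pigs 1, 2, 5 and 6 or fibre2B pigs 10, 14 and 16 was removed (edgeR adjusted p 0.051 to 0.106). That of BMP4 ended on removal of any single pig except fibre1 pig 12 (0.061 to 0.135), and in 5 other alternatives, among them no filter on low counts, limma-voom and the fit without fibre1 pigs 5 and 6 (0.053 to 0.141).

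On the IGF1 side, the growth hormone receptor gene GHR had 4.20 ± 2.13 CPM in fibre1 against 3.49 ± 1.24 CPM in fibre2B (adjusted p = 0.653). Of 4 binding protein and protease genes tested 0 passed by edgeR (0 at an unadjusted p under 0.05), and IGFBP6, with the smallest p, had 22.4 ± 7.03 CPM in fibre1 against 28.3 ± 7.49 CPM in fibre2B (adjusted p = 0.344). IRS1, an adaptor of the IGF1 and insulin receptors, had 20.9 ± 5.35 CPM in fibre1 against 13.0 ± 3.54 CPM in fibre2B (adjusted p = 0.065, and 0.024 in DESeq2). The ID of IGF1R, the receptor itself, held 2 counts over all pigs, both in fibre2B pig 14, so its level is not described.

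Of 12 tested genes of the PI3K, AKT and mTOR arm 3 were called higher in fibre1 and 0 lower, beside 4.38% and 4.63% of all tested genes. Log2 fold changes were above 0 in 9 of them and below 0 in 3. RPS6KB1 (-0.38), MTOR (0.65) and TSC2 (0.56) were not called in the main fit, but passed in 5, 4 and 2 of 23 alternatives. AKT2, an insulin-responsive AKT kinase, had 75.8 ± 19.5 CPM in fibre1 against 41.5 ± 5.83 CPM in fibre2B (log2 fold change 0.87 ± 0.19, edgeR adjusted p = 0.024). RPTOR, a subunit of the mTORC1 complex, had 11.6 ± 2.41 CPM in fibre1 against 6.38 ± 0.59 CPM in fibre2B (0.86 ± 0.18, adjusted p = 0.019). AKT1S1, whose product binds and restrains that complex, had 70.5 ± 15.5 CPM in fibre1 against 44.8 ± 5.66 CPM in fibre2B (0.65 ± 0.17, adjusted p = 0.037). FOXO4, a transcription factor that AKT holds back, was higher in fibre1 as well (63.4 ± 18.3 CPM, against 31.9 ± 6.80 CPM in fibre2B, 0.99 ± 0.23, adjusted p = 0.026). FOXO1, with 16.5 ± 2.53 CPM in fibre1 against 26.8 ± 13.0 CPM in fibre2B, did not pass by edgeR (adjusted p = 0.071, and 0.045 in DESeq2). Fibre2B pig 14 had 45.8 CPM of FOXO1, against 24.5, 18.0 and 18.8 CPM in fibre2B pigs 10, 11 and 16. With 1 pig left out the FOXO1 log2 fold change ran from -0.84 to -0.30. The edgeR adjusted p ran from 0.048, without fibre2B pig 11, to 0.327. FBXO32, a ubiquitin ligase gene known to rise in wasting muscle, did not pass either (log2 fold change -0.56, edgeR adjusted p = 0.503). FBXO30, another ligase gene of that list, had -0.89 and was not called in the main fit. It passed in DESeq2 (adjusted p = 0.040) and without fibre1 pig 12 (edgeR adjusted p = 0.036). Of the 5 tested FOXO and ligase genes 4 had log2 fold changes below 0, FBXO32 among them. FBXO32 had 27.7 CPM in fibre2B pig 11, against 3.35, 4.60 and 3.70 CPM in fibre2B pigs 10, 14 and 16. Without fibre2B pig 11 its log2 fold change was 0.80. Removing any one of fibre2B pigs 10, 14 and 16 ended the calls of AKT2, FOXO4 and RPTOR, and removing fibre1 pig 2 those of AKT2 and FOXO4 (edgeR adjusted p 0.051 to 0.089). The AKT1S1 call ended when any one of fibre1 pigs 1, 2, 5 and 6 or any single fibre2B pig was removed (0.055 to 0.123).

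**Figure D5:**
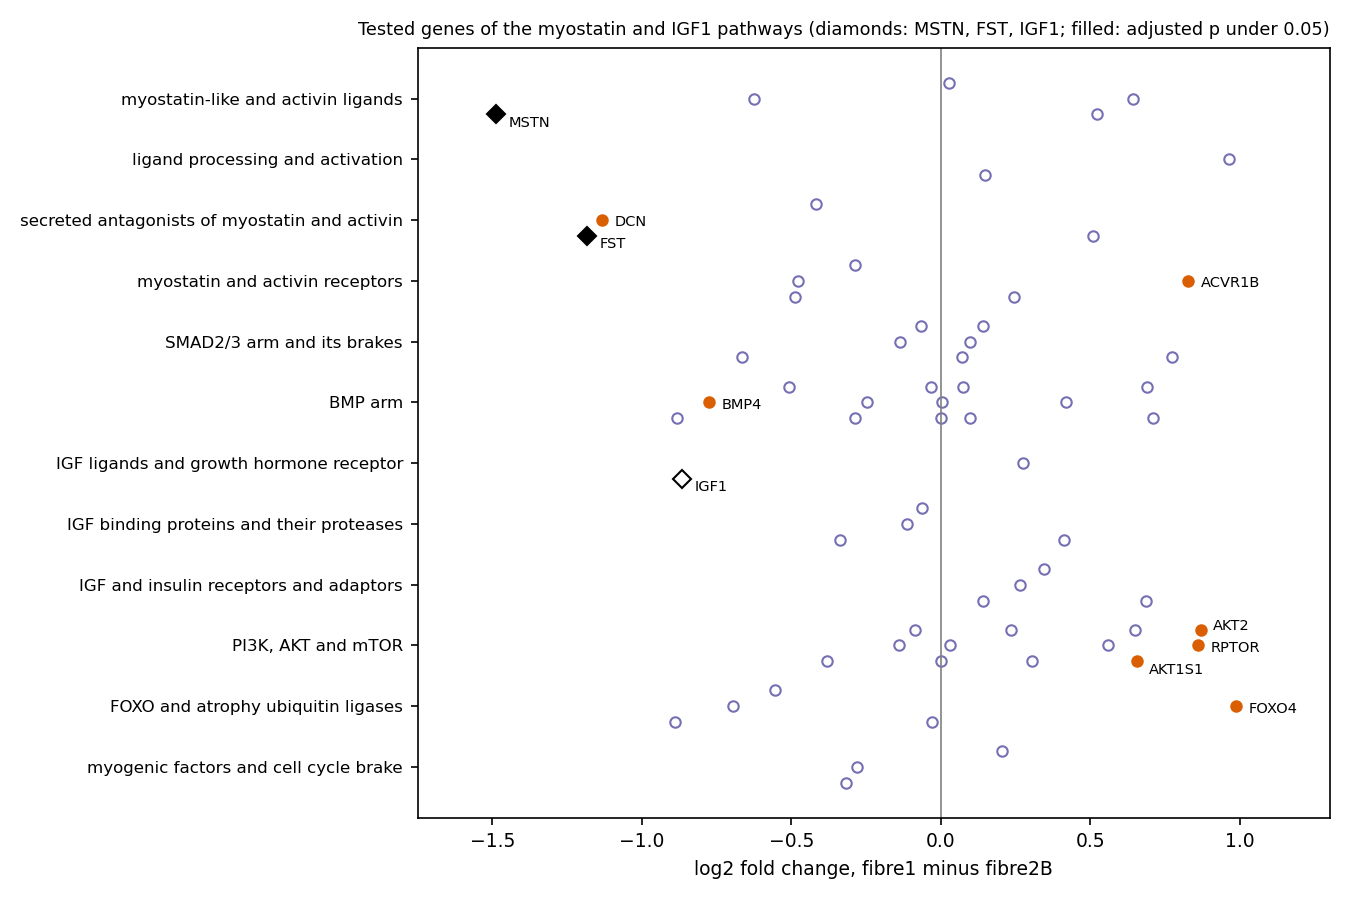
Log2 fold change, fibre1 minus fibre2B, of each tested gene on the pathway lists, 1 row per list; diamonds are MSTN, FST and IGF1, and filled symbols have an edgeR adjusted p under 0.05. DCN and BMP4 are called lower in fibre1 beside MSTN and FST, and ACVR1B, AKT2, RPTOR, AKT1S1 and FOXO4 are called higher.

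All 5 tested fibroblast markers had log2 fold changes below 0, with DCN and LUM called lower in fibre1 (LUM not without fibre1 pig 2 or fibre2B pig 11 or 14, adjusted p 0.051 to 0.085), and the 6 markers with an ID summed to 473 to 977 CPM in fibre1 and to 746 to 1439 CPM in fibre2B. Of 7 macrophage and leukocyte markers 0 passed by edgeR (1 at an unadjusted p under 0.05), and they summed to 15.1 to 46.7 CPM in fibre1 and 27.4 to 77.7 CPM in fibre2B. Of 5 satellite cell markers VCAM1 was lower in fibre1 (edgeR adjusted p = 0.049, a call kept in 8 of 23 alternatives and lost on removal of any of 9 single pigs, 0.057 to 0.198), with sums of 28.7 to 42.4 CPM in fibre1 and 37.5 to 61.8 CPM in fibre2B. The 3 blood markers, HBB among them called lower in fibre1 (lost on removal of any of 7 single pigs, 0.052 to 0.153), summed to 137 to 467 CPM in fibre1 and 423 to 955 CPM in fibre2B. No marker with an ID was at 0 in every pig. Fibre2B pig 14, the highest for FST and IGF1, had the highest sum of all pigs in each of these 4 lists and in that of adipocyte markers (8.80 CPM, with RBP4 called lower in fibre1). It did not in the endothelial list (72.6 CPM, over ranges of 61.5 to 126 CPM in fibre1 and 72.3 to 113 CPM in fibre2B), in the smooth muscle list (125 CPM, over 75.2 to 146 CPM in fibre1 and 76.5 to 131 CPM in fibre2B, with KCNJ8 called lower in fibre1) or in the nerve list, where it was the lowest of fibre2B. RBP4 and KCNJ8 lost their calls on removal of any of 6 and 7 single pigs (0.061 to 0.152 and 0.053 to 0.148). Most tested markers of their lists went the other way. Log2 fold changes were above 0 in 2 of 3 adipocyte markers (median 0.14) and 4 of 6 smooth muscle markers (median 0.24). The part of these cells in the FST, IGF1 and MSTN values was not tested.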

How the data were processed

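The authors deposited expected counts per gene and per isoform, without decimals and not normalized, with 1 column per pig. The submitters' processing notes name CASAVA 1.8.2, FastQC, STAR, RSEM, edgeR, DESeq2 and the build Sscrofa10.2, with no roles. The series' design text gives 5 technical repetitions. Columns were joined to pigs by the number in the sample title, and there were 0 columns of other samples. A table pairing gene IDs with symbols named 11804 rows. Listed genes without a symbol match were not analysed here.

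Expected counts were rounded, which changed nothing, and tested with edgeR 4.0.16 in R 4.3.3: TMM factors, filterByExpr, the quasi-likelihood F test on the group, and Benjamini-Hochberg adjustment over all tested genes at 0.05. The SE is the size of the log2 fold change over the square root of F. Log2 CPM used a prior count of 2, and log2 ratios 0.5 added to each count. The fit was also run on simulated counts, drawn independently for each gene and pig, and nothing above rests on that run. The genes, lists and tests were chosen with earlier results of these data known. Named genes were the 3 genes, called list members, up to 3 more per pathway list by p, and the 4 nearest by likeness. Alternatives used DESeq2 1.42.0, limma 3.58.1 and sva 3.50.0. Replicates are pigs.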

Additional observations from a re-analysis of the deposited data

Results flagged for a closer look

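Values of 96 groups of pigs, for the 3 genes, the FST to MSTN ratio and the named list genes, were examined for a pig far from the rest of its group by Dixon's criterion. Chance alone meets it in about 1 in 20 groups of normally distributed values. CPM and ratios were used here without a log, and list genes were partly named by p, so that rate is only a rough guide. The criterion was met in 9 groups, each time by a high value. MSTN in fibre1 pig 7 was 4.59 CPM, against 1.08 to 2.57 CPM in the other 6 fibre1 pigs. FST in fibre2B pig 14 was 41.0 CPM, against 11.6 to 15.9 CPM in the other 3 fibre2B pigs.

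Fibre1 pig 7 also stood apart in its group for IGFBP6 (37.3 CPM, others at most 22.4), the matrix gene LUM (60.9 CPM, others at most 38.3) and RBP4 (1.29 CPM, others at most 0.520). Fibre2B pig 11 stood apart for the activin receptor gene ACVR2B (3.34 CPM, others at most 2.03), the ubiquitin ligase gene FBXO32 (27.7 CPM, others at most 4.60) and MYF5 (2.21 CPM, others at most 0.504). The kinase gene RPS6KB1 was 43.7 CPM in fibre1 pig 17, against at most 34.0 CPM in the other fibre1 pigs.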

How the results depend on the processing

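The log2 fold changes of MSTN, FST and IGF1 stayed below 0 in each of the 23 alternatives, from -1.85 to -1.22 for MSTN, from -1.38 to -0.61 for FST and from -1.09 to -0.48 for IGF1, and the same ranges hold with 1 pig left out. IGF1 passed in 0 of them (edgeR, DESeq2 and limma-voom adjusted p from 0.072 to 0.416). Apart from single pigs, the calls of MSTN and FST were lost when the share of each library taken by the 10 most abundant nuclear genes, the same genes in every library, entered as a covariate (-1.23, adjusted p = 0.103, and -1.10, adjusted p = 0.072) and without fibre1 pigs 5 and 6 (-1.30, adjusted p = 0.124, and -1.14, adjusted p = 0.089). The FST to MSTN difference stayed between 0.18 and 0.92 in 14 alternatives, and from 0.19 to 0.92 with 1 pig left out.

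Of all genes edgeR called 1021. The count was 1740 with DESeq2, 1748 with quality weights, 460 with the covariate, 28 without fibre1 pigs 5 and 6, and 0 to 1548 with 1 pig left out. Of the 63 pathway genes 7 were called, and 16 with DESeq2, 16 with quality weights, 12 with 1 surrogate variable, 4 with the covariate, 0 without fibre1 pigs 5 and 6 (20 at an unadjusted p under 0.05) and 0 to 11 with 1 pig left out.

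Within fibre1, r of MSTN and IGF1 was 0.593 without the 2 outer pigs and 0.770 to 0.936 with 1 pig left out. Over all 11 pigs of both groups, with group means removed, r was 0.303. For MSTN and FST within fibre1 r was 0.669 without the 2 outer pigs and -0.32 to 0.228 with 1 pig left out. For FST and IGF1 within fibre1 r was -0.71 without the 2 outer pigs, 0.556 with library totals, and -0.80 to 0.217 with 1 pig left out. It was 0.565 over all pigs of both groups with group means removed.

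With quality weights the log2 fold changes of IGFBP4 (0.0047), FBXO32 (0.21), MYF5 (0.32), PPID (0.028) and MGME1 (0.027) turned round, as did MYF5 with plain limma-voom (0.0799). Without fibre2B pig 11 WFIKKN2 (0.30), FBXO32 (0.80), MYF5 (0.77) and MYOD1 (-0.0089) turned round, and without fibre2B pig 14 PPID (0.16), MGME1 (0.11) and MX1 (0.16). With 1 pig left out the other ends of their ranges were -0.63 for WFIKKN2, -0.84 for FBXO32, 0.48 for MYOD1, -0.54 for MYF5, -0.19 for PPID, -0.27 for MGME1 and -1.30 for MX1. None of these was called, and the cause was not tested. No paired analysis was possible because the groups share no pig number.

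MSTN and IGF1 had 14 to 159 counts per pig, which limits the precision of single values. The fibre share is known only as bounds, fibre2B has 4 pigs, and fibre type cannot be told apart from anything else that differs between the groups.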

Other observations

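Some growth genes on the lists fell under the filter on low counts and were chosen for mention after their values were seen. IGFBP1, an IGF binding protein made mainly by the liver, had 0 counts in each of the 7 fibre1 pigs, and 1, 16, 11 and 0 counts in fibre2B pigs 10, 11, 14 and 16. STC1, which encodes a stanniocalcin, a family that inhibits IGF binding protein proteases, had 2 to 16 counts in fibre1 and 9, 12, 22 and 5 counts in fibre2B pigs 10, 11, 14 and 16. INHA, the inhibin alpha subunit gene, had 0.063 to 0.875 CPM in fibre1 and 0.057 to 0.217 CPM in fibre2B. None of these genes was tested.

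The likeness to FST leaned on fibre2B pig 14 for each of the genes named for it. Without that pig, an alternative chosen after seeing the data, Pearson's r with group means removed was 0.727 for PPID, 0.673 for HSP90B1, 0.524 for CCT4 and 0.720 for MGME1. For IGF1 it was 0.898 for UBE2L6, 0.858 for LZTFL1, 0.847 for MX1 and 0.846 for NSMCE4A.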
